A study of Mus musculus with 32 samples.

Results

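The first 12 h after withdrawal of 2i were examined in E14 mouse embryonic stem cells, an established line. Of the 32 libraries of the series, 4 belong here by their labels. They are 2 libraries of cells still in 2i (0 h) and 2 libraries of cells 12 h after withdrawal (12 h). Cells of both groups were grown on gelatin in N2B27, a medium without serum, with 2i and no LIF. The inhibitors were CHIR99021 at 3 uM, which blocks the kinase GSK3, and PD0325901 at 1 uM, which blocks the kinase MEK. Cells were seeded at a density at which they stand singly, and on the following day the medium was exchanged for N2B27 alone. Both inhibitors were withdrawn together, and time in culture goes with withdrawal, so these cannot be told apart in the comparison. Messenger RNA was read from the 3′ end of transcripts. Whether the replicates came from separate cultures is not in the labels. The p-values measure only the spread between libraries of a group, estimated over all 32 libraries of the series.

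GSK3 marks beta-catenin for destruction. With GSK3 inhibited, beta-catenin accumulates, enters the nucleus and binds the TCF and LEF factors, which relieves repression by TCF7L1 and activates Wnt target genes. MEK activates the kinase ERK, which in embryonic stem cells is driven mainly by FGF4 made by the cells themselves and moves them out of the naive state. Cells released from both inhibitors are known to pass from naive pluripotency, the state of the preimplantation epiblast, to formative pluripotency, the state of the early postimplantation epiblast, which can respond to signals for lineage choice.

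The 0 h libraries held 2618464 and 1868148 counts in genes and the 12 h libraries 1735920 and 1443021. Levels are given in CPM, counts per 1000000 counts scaled with TMM factors, and on this scale a floor of 3 counts was 1.22 and 1.7 CPM at 0 h and 2.12 and 3.06 CPM at 12 h. The floor and the intervals below cover counting error only. The libraries of a group differed by more than sampling noise. The 12 h libraries also differed from each other and from 0 h in what they held. The 10 most abundant genes took 22.3% and 24.7% of counts at 0 h and 35.5% and 43.5% in 12 h replicates 1 and 2. Most of that gain was Gm42418, a transcript that holds ribosomal RNA sequence, with 14% and 16.1% at 0 h and 29.3% and 36.7% at 12 h. Ribosomal protein genes took 10.4% and 10.2% at 0 h and 6.72% and 5.50% at 12 h. The part of this composition in the results was not tested, and the comparison was also made with each 12 h library alone. Pluripotency genes other than those of the naive state summed to 3396 and 3354 CPM at 0 h and 4689 and 4850 CPM at 12 h. Markers of fibroblasts or feeder cells summed to 37.0 and 42.0 CPM at 0 h and 28.2 and 36.7 CPM at 12 h, with Postn at 0 counts in all 4 libraries.

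The question of the comparison was which transcripts changed before the first day without 2i was over. Of 11761 tested genes, 664 rose and 682 fell, or 5.65% and 5.8% (11.4% in all), by edgeR's quasi-likelihood test with an adjusted p under 0.05. Of these 1346 genes, 941 changed by at least 1 on the log2 scale and 351 by at least 2. The median log2 fold change of all tested genes was -0.01. With each 12 h library set alone against 0 h, 378 genes (3.21% of those tested) passed the test both times in the same direction, 210 up (1.79%) and 168 down (1.43%). These genes are said below to hold. A further 285 of the 1346 passed with 12 h replicate 1 alone only, 261 with replicate 2 alone only and 422 with neither. The direction differed between the 12 h libraries in 0 of the 1346 genes, as the plot of both libraries shows for listed and named genes. These genes were called from both 12 h libraries together, which favours equal directions, and both fold changes share the 0 h libraries. The count of 0 is therefore no measure of how well the 12 h libraries agree. The call was kept in all 4 fits that left out 1 library by 342 genes, 177 up and 165 down. Counts without 0 h replicate 1, 0 h replicate 2, 12 h replicate 1 and 12 h replicate 2 are given below in this order and called left-out counts. For all genes they were 571, 762, 763 and 728. The sign ± precedes a standard error where it follows a log2 fold change and a standard deviation where it follows a level (n = 2 libraries per group).

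**Figure D1:**
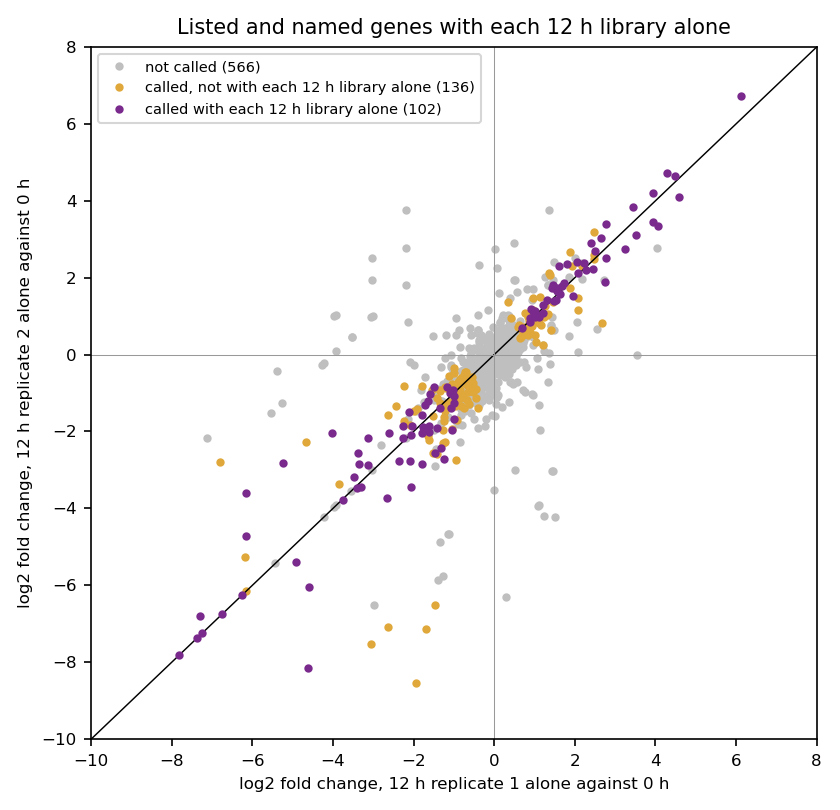
Each point is a gene of the lists or of the rule for named genes. The axes give the log2 fold change of 12 h replicate 1 alone (horizontal) and of 12 h replicate 2 alone (vertical) against both 0 h libraries, with the line of equal values. Purple points, called with each library alone, lie along that line, and no called gene lies in a quadrant of opposite signs. Genes were called from both 12 h libraries together, which favours equal signs.

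The lists of signalling, pluripotency and metabolism moved unevenly, as the plot of their called shares shows. Nodal targets, naive genes, glycolytic genes, targets of beta-catenin and ribosomal protein genes had the largest shares of falling members among the plotted lists with 10 or more tested genes. The formative list, general pluripotency genes, TET enzymes and base repair, and germline genes had the largest shares of rising members among such lists. These lists were drawn up with earlier results of the data known, and their shares are given beside those of all genes as a description.

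**Figure D2:**
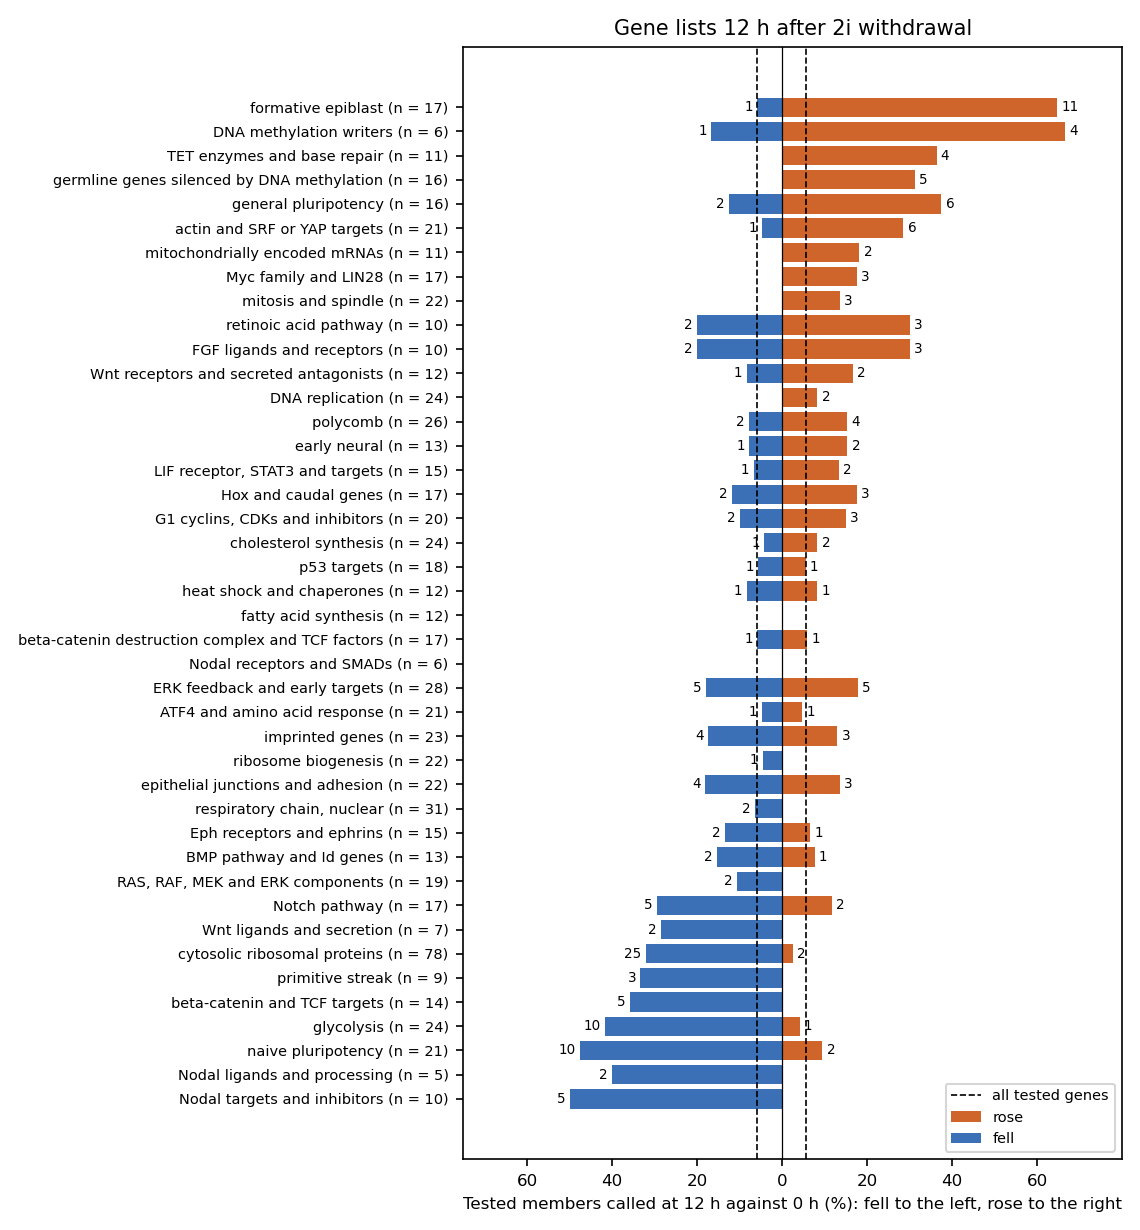
Bars give the percentage of each list's tested members that rose (orange, to the right) or fell (blue, to the left) at 12 h against 0 h, with the number of genes at the bar's end and the number tested in brackets. Dashed lines are the shares of all tested genes, 5.65% up and 5.8% down. The formative list reaches farthest to the right among the plotted lists of 10 or more genes, with 11 of 17 members, and Nodal targets farthest to the left, with 5 of 10.

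Targets of beta-catenin and TCF were the group nearest to the withdrawn GSK3 inhibitor. Of 14 tested targets 5 fell and 9 did not pass the test, with a median log2 fold change of -1.38 (-1.17 with genes at 0 counts set to their bounds). The left-out counts were 4, 4, 3 and 4. Sp5 (ENSMUSG00000075304, chromosome 2, 70474923 to 70477729, build mm10), a zinc finger factor that acts under Wnt signals, was at 28.8 and 29 CPM at 0 h and at 0.706 and 4.08 CPM at 12 h (log2 fold change -3.74 ± 0.57, adjusted p = 2.4e-05). Both 12 h libraries lay far below 0 h, and the fold change was -5.23 with 12 h replicate 1 alone and -2.82 with replicate 2 alone. T (ENSMUSG00000062327), or Brachyury, the factor of the primitive streak, had 36 and 27 counts at 0 h and 0 in both 12 h libraries. It was at least 11.9-fold lower at 12 h (adjusted p = 4.8e-05). Cdx2, a caudal factor of posterior embryo and trophectoderm, had 26 and 20 counts at 0 h and 0 in both 12 h libraries and was at least 8.71-fold lower (adjusted p = 0.00066). Axin2, a scaffold of the destruction complex and the usual readout of the pathway, was at 36.1 and 30.7 CPM at 0 h and at 7.06 and 19.4 CPM at 12 h (-1.43 ± 0.42, adjusted p = 0.021). The groups do not overlap, but the 12 h libraries lie far apart, and the call was lost without 0 h replicate 1 (adjusted p = 0.14) or 12 h replicate 1 (-0.81, adjusted p = 0.34). Tnfrsf19, a receptor of the TNF family, fell by 1.16 on the log2 scale, and lost its call without 0 h replicate 2 (adjusted p = 0.055), 12 h replicate 1 (0.060) or 12 h replicate 2 (0.061). Lef1 (66.1 ± 1.85 CPM before and 81.0 ± 0.828 CPM after, adjusted p = 0.41) and Ccnd1, the gene of cyclin D1 (369 ± 0.0952 and 414 ± 79.1 CPM, adjusted p = 0.65), did not pass the test.

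The 300 bases around the RefSeq starts of Sp5, T and Axin2 are shown because these targets of beta-catenin differed in how far they fell. The promoters are from build GRCm38.p6, on the plus strand, at chr2:70474673-70474972, chr17:8434173-8434472 and chr11:108920099-108920398, and run from 250 bases before to 50 after the start. Capitals mark matches to the core of TCF and LEF sites, CTTTGA or CTTTGT, on either strand.
Sp5: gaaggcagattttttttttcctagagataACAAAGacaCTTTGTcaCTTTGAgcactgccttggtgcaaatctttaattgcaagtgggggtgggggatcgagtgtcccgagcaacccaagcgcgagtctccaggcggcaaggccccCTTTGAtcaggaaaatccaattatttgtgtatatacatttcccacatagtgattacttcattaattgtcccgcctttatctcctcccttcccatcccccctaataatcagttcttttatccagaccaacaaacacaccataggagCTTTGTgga
T: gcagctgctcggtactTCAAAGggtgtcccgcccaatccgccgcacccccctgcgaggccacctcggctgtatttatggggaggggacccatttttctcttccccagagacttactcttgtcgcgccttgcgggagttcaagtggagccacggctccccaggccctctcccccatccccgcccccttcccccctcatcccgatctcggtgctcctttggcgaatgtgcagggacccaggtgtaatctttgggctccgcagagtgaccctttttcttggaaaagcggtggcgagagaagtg
Axin2: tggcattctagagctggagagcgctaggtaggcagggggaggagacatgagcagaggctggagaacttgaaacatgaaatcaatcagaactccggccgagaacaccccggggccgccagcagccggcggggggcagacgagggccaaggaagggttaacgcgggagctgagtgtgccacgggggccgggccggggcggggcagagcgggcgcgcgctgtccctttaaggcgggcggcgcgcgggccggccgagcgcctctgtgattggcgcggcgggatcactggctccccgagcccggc
The Sp5 promoter holds 5 matches and the T promoter 1, while the Axin2 window holds 0. Of 32851 promoters of this length in the RefSeq table, 31.2% hold at least 1 match and 12, or 0.0365%, hold at least 5. CTTTGA alone is in 16% and CTTTGT alone in 18.7%. The window of Cdx2 (chr5:147307200-147307499, minus strand) holds 0 matches to these letters. A match is a description of the sequence, and binding was not measured here.

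**Figure D3:**
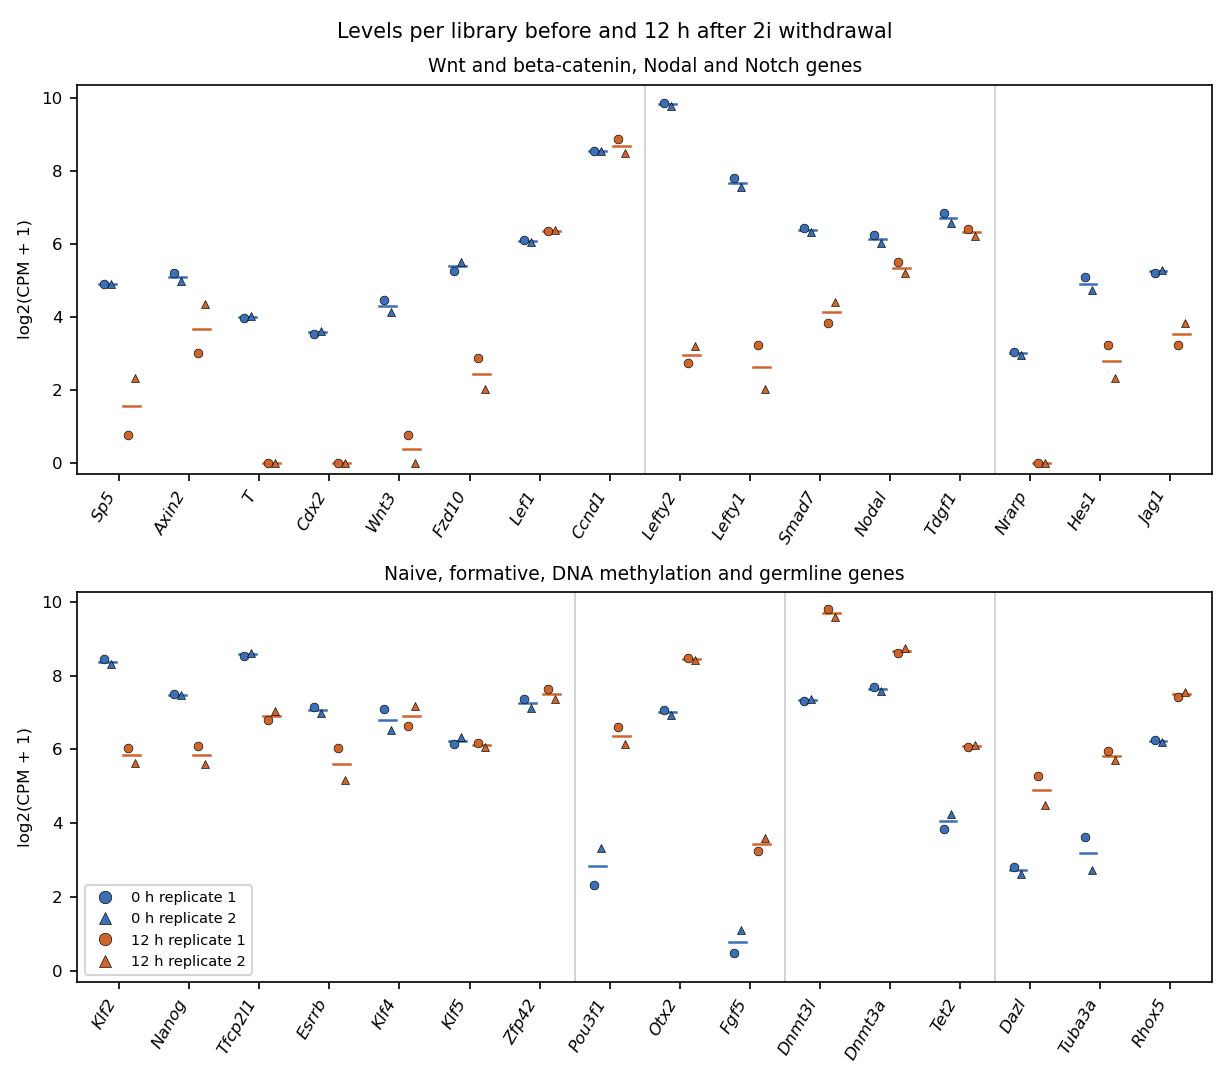
Points give log2(CPM + 1) in each library for genes of Wnt and beta-catenin, Nodal and Notch signalling (top) and for naive, formative, DNA methylation and germline genes (bottom), and short lines give group means. T, Cdx2 and Nrarp are at 0 in both 12 h libraries, Lefty2 falls from above 875 CPM to 8.16 CPM or less, and the groups of Klf4, Klf5 and Zfp42 overlap.

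Some Wnt ligands and receptors changed. Wnt3, a ligand of the streak, had 52 and 29 counts at 0 h and 1 and 0 at 12 h, a ratio of 46 (95% counting interval 8.03 to 1840, adjusted p = 2.8e-05). Wnt5b fell from 17.9 and 21.6 CPM to 0.706 and 4.08 CPM (adjusted p = 0.00096, and 0.066 without 12 h replicate 1). These were the 2 called members of 7 tested genes for Wnt ligands and their secretion, Porcn and Wls among the 7. Among 12 receptors and secreted antagonists Fzd10 fell from 37.4 and 44.3 CPM to 6.35 and 3.06 CPM (-3.02 ± 0.39, adjusted p = 1e-06, and -3.72 without 12 h replicate 1). The antagonist Sfrp1 rose from 40.2 and 61.4 CPM to 97.4 and 139.7 CPM (adjusted p = 0.0025, but 0.11 without 0 h replicate 1 and 0.073 without 12 h replicate 2). The receptor Fzd7 passed too (1.22 ± 0.36), but not without 0 h replicate 1 (adjusted p = 0.41), 12 h replicate 1 (0.20) or 12 h replicate 2 (0.054). Of 17 genes of the destruction complex and TCF factors only Dvl2, a transducer between receptor and GSK3, and Tcf7l2 passed. Dvl2 fell from 218 and 234 CPM to 105 and 115 CPM (adjusted p = 8.8e-05). Tcf7l2 rose from 8.12 and 13.6 CPM to 23.3 and 30.6 CPM (adjusted p = 0.011, but 0.22 without 0 h replicate 1 and 0.12 without 12 h replicate 2). Tcf7l1, the repressor of naive genes, was at 222 ± 11.7 and 252 ± 9.27 CPM (adjusted p = 0.59), and Ctnnb1, which encodes beta-catenin, at 410 ± 26.3 and 304 ± 116 CPM (adjusted p = 0.40).

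Nodal is a ligand of the TGF-beta family that signals through SMAD2 and SMAD3 and induces its own inhibitors, the Lefty proteins. Of 10 tested Nodal targets and inhibitors 5 fell, 10 of 10 had a negative log2 fold change, and the median was -1.17 (left-out counts 4, 4, 4 and 3). Lefty2 was at 931 and 875 CPM at 0 h and 5.64 and 8.16 CPM at 12 h, and Lefty1 (ENSMUSG00000038793, chromosome 1, 180935022 to 180938400) at 223 and 186 CPM and 8.47 and 3.06 CPM (-5.04 ± 0.39, and -6.05 without 12 h replicate 1). Smad7, the intracellular inhibitor of the receptors, fell from 85.3 and 79.0 CPM to 13.4 and 20.4 CPM (-2.31 ± 0.33, adjusted p = 7.2e-06). All 3 inhibitors kept their calls in all 4 fits with a library left out. Ndrg1 fell by 1.54 on the log2 scale (adjusted p = 0.0023, and 0.056 without 12 h replicate 2).

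The ligand gene Nodal was at 74.3 and 64.2 CPM at 0 h and 44.5 and 35.7 CPM at 12 h (-0.78 ± 0.26, adjusted p = 0.047), and the call was lost in each fit that left out 1 library (adjusted p = 0.084 to 0.27). Furin, a protease that activates the Nodal precursor, fell by 1.07 on the log2 scale (adjusted p = 0.026, or 0.070 to 0.17 with 1 library left out). The left-out counts of the 5 tested ligands and processing genes were thus 0 each by edgeR, and DESeq2 with all 4 libraries called 0 of them, where 2 had an unadjusted p under 0.05. The co-receptor Tdgf1, also called Cripto, went from 104 ± 13 CPM to 78.7 ± 7.44 CPM without passing the test (adjusted p = 0.31). Of 6 tested receptors and SMADs, edgeR and DESeq2 called 0, and 1 had an unadjusted p under 0.05.

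Genes of the BMP pathway, which in embryonic stem cells induces the Id inhibitors of differentiation, went in both directions. Id2 rose from 4.06 and 3.98 CPM to 19 and 21.4 CPM (2.30 ± 0.37, adjusted p = 4.8e-05). Id4 fell from 47.1 and 55.7 CPM to 4.94 and 7.14 CPM (-3.11 ± 0.40, adjusted p = 1e-06). The ligand Bmp7 fell from 12.6 and 12.5 CPM to 0.706 and 3.06 CPM (adjusted p = 0.00029, with -4.03 from 12 h replicate 1 alone and -2.03 from replicate 2 alone). These were the 3 called members of 13, and all 3 hold. The main Id genes of the naive state, Id1 (6.74 ± 4.94 and 6.71 ± 3.5 CPM) and Id3 (19.5 ± 7.47 and 22 ± 16.7 CPM), did not pass the test (adjusted p = 1.0 and 0.86).

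Of 28 tested ERK feedback genes and early targets 5 rose, 5 fell and 18 did not pass the test. The left-out counts were 3, 2, 3 and 2 up and 0, 4, 1 and 1 down. Etv4 (ENSMUSG00000017724, chromosome 11, 101769742 to 101785371), an ETS factor that FGF signals induce, was at 7.31 and 8.52 CPM at 0 h and 54.3 and 83.6 CPM at 12 h (3.11 ± 0.28, adjusted p = 7.7e-10). Etv1, of the same family, rose from 13.4 and 13.6 CPM to 37.4 and 47.9 CPM (1.64 ± 0.25, adjusted p = 2.2e-05). Both genes hold. Etv5, the third member of the family and the most abundant at 0 h, went the other way, from 240 and 260 CPM to 147 and 173 CPM (-0.65 ± 0.20, adjusted p = 0.027), but lost its call with any 1 library left out (adjusted p = 0.065 to 0.21).

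Among feedback inhibitors of the pathway Spry4, Dusp4 and Spred3 rose from few counts. Spry4, which blocks signalling from receptors to RAS, had 2 and 1 counts at 0 h and 6 and 7 at 12 h, a ratio of 7.63 (95% counting interval 2.1 to 41.7, adjusted p = 0.016). It lost its call without 0 h replicate 1 (adjusted p = 0.10), 0 h replicate 2 (0.082) or 12 h replicate 2 (0.14). Dusp4, a phosphatase of nuclear ERK, rose from 2.15 ± 0.172 to 7.64 ± 2.16 CPM (adjusted p = 0.031, or 0.051 to 0.29 with 1 library left out). Spred3 had 8 and 1 counts at 0 h and 8 and 9 at 12 h (adjusted p = 0.039, or 0.28 without 0 h replicate 2, 0.061 without 12 h replicate 1 and 0.28 without 12 h replicate 2). Dusp6, the phosphatase of cytoplasmic ERK, was at 15.4 and 15.9 CPM at 0 h and 43.7 and 24.5 CPM at 12 h and did not pass the test (1.16 ± 0.56, adjusted p = 0.19). Spry2 was at 63.7 ± 2.28 and 80.5 ± 9.93 CPM (adjusted p = 0.55).

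Immediate early genes are transcribed within minutes of ERK activation. Egr1 had 760 counts (309 CPM) in 0 h replicate 1 and 2 counts (1.14 CPM) in 0 h replicate 2, against 3 and 4 counts at 12 h. The fitted change was -5.72 (adjusted p = 0.0039), and it was 1.31 without 0 h replicate 1 (adjusted p = 0.84). Fos had 42 and 0 counts at 0 h and 0 and 2 at 12 h. Jun, Ier2 and Dusp1 were also highest in 0 h replicate 1, at 30.4, 49.9 and 31.3 CPM, against 10.8, 28.4 and 17 CPM in 0 h replicate 2. At 12 h they were at 5.64 and 8.16 CPM, 16.9 and 16.3 CPM, and 6.35 and 0 CPM. Without 0 h replicate 1 the calls of Jun (adjusted p = 0.58), Ier2 (0.28) and Dusp1 (0.071) were lost. Jun and Ier2 also lost theirs without 12 h replicate 1 (0.20 and 0.075) or 12 h replicate 2 (0.065 and 0.068), and Dusp1 without 12 h replicate 2 (0.055). Later in the course Egr1 and Fos were also higher in replicate 1, at 36, 48, 60, 72 and 84 h. The gap for Egr1 was small at 48 and 72 h. At 84 h Egr1 was at 55.15 and 15.48 CPM and Fos at 24.01 and 2.764 CPM in replicates 1 and 2. At 12 and 24 h replicate 2 was the higher for both genes. Why 0 h replicate 1 held these transcripts, and why later replicates differed, was not tested.

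**Figure D4:**
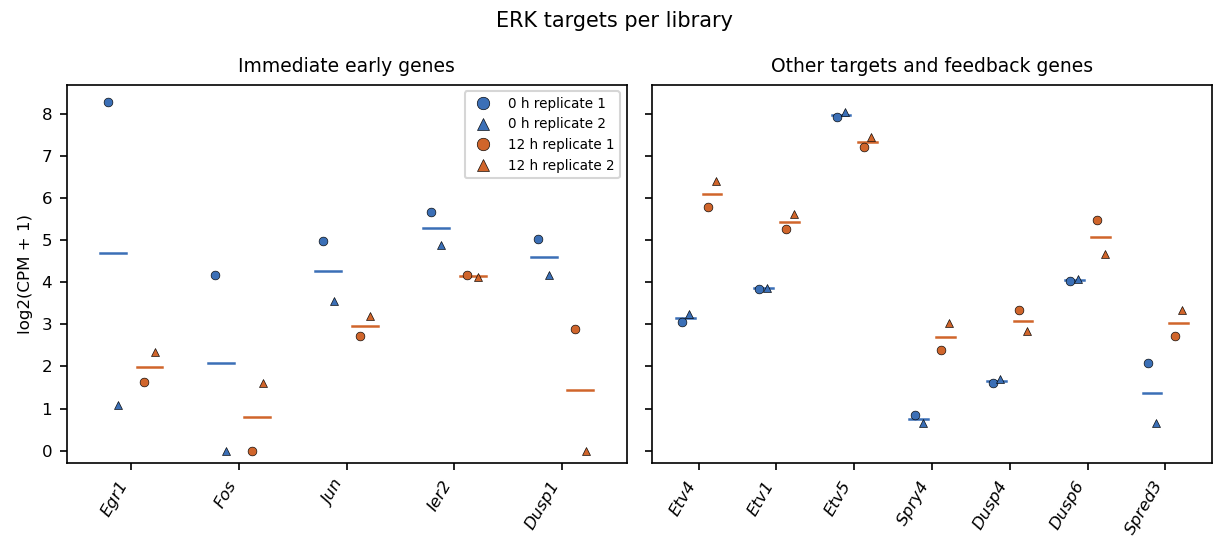
Points give log2(CPM + 1) in each library for immediate early genes (left) and other ERK targets and feedback genes (right), with short lines at group means. Egr1 and Fos stand high in 0 h replicate 1 only, while Etv4, Etv1, Spry4 and Dusp4 are higher in both 12 h libraries than in both 0 h libraries and Etv5 is lower.

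Among the 19 genes for RAS, RAF, MEK and ERK themselves Mapk3, which encodes ERK1, was at 98.7 and 75 CPM at 0 h and 40.9 and 46.9 CPM at 12 h. Its adjusted p lay just under the threshold of 0.05, and the call was lost with any 1 library left out. In the list of FGF ligands and receptors 3 of 10 tested genes rose (Fgf5, Fgf4 and Fgfbp1) and 2 fell (Fgfr1 and Fgfr2). Of all tested genes 5.65% rose and 5.8% fell. Only Fgf5 of these holds. Fgf5, a marker of the formative epiblast, had 3 counts at 0 h and 23 at 12 h, a ratio of 13.5 (95% counting interval 4.08 to 70.2, adjusted p = 0.00025). Fgf4, the ligand that the cells make, rose from 145 and 161 CPM to 305 and 222 CPM (0.79 ± 0.22, adjusted p = 0.016, but 0.17 without 0 h replicate 1, 0.063 without 0 h replicate 2 and 0.25 without 12 h replicate 1). Fgfr1, its main receptor in these cells, fell from 74.3 and 66.5 CPM to 39.5 and 46.9 CPM (adjusted p = 0.020, or at least 0.050 with any 1 library left out).

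No LIF was given. Of 15 tested genes of its pathway 2 rose and 1 fell. The receptor chain Lifr rose from 52.0 and 47.2 CPM to 102 CPM in both 12 h libraries (1.04 ± 0.25, adjusted p = 0.0052, and 0.064 without 0 h replicate 2). Its kinase Jak1 rose from 38.2 and 48.9 CPM to 86.8 and 86.7 CPM (adjusted p = 0.0057, but 0.14 without 0 h replicate 1 and 0.051 without 12 h replicate 1). Tfcp2l1, a target of STAT3, fell from 372 and 389 CPM to 109 and 131 CPM (-1.67 ± 0.22, adjusted p = 1e-06) and held. Stat3 was at 17.3 ± 2.06 and 13 ± 0.396 CPM (adjusted p = 0.57).

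Part of the naive network was lower at 12 h. Of 21 tested naive genes 10 fell, 2 rose and 9 did not pass the test, with a median of -0.87 and left-out counts of 8, 9, 8 and 7 down. Klf2 (ENSMUSG00000055148, chromosome 8, 72319033 to 72321656), a Krüppel-like factor of the naive network, was at 347 and 315 CPM at 0 h and 64.2 and 49.0 CPM at 12 h (-2.53 ± 0.24, adjusted p = 3e-09). Dppa3, which shields DNA from maintenance methylation, fell from 42.6 and 47.2 CPM to 10.6 and 4.08 CPM (-2.52 ± 0.39, adjusted p = 3.6e-05, and -3.45 without 12 h replicate 1). Tdh, which breaks down threonine in mouse embryonic stem cells, fell from 790 and 717 CPM to 246 and 211 CPM (-1.72 ± 0.23). Nanog, the core homeodomain factor, fell from 180 and 177 CPM to 67.0 and 47.9 CPM (-1.61 ± 0.24). Esrrb, an orphan receptor that TCF7L1 represses, fell from 140 and 126 CPM to 64.2 and 34.7 CPM (-1.39 ± 0.26). Nr5a2, a further orphan receptor, fell from 169 and 165 CPM to 84.0 and 79.6 CPM (-1.02 ± 0.20). With Tfcp2l1 these genes kept their calls with each library left out. The fall of Tbx3 from 117 ± 11.9 to 64.4 ± 1.68 CPM (adjusted p = 0.011) was lost without 0 h replicate 1 (0.13), 12 h replicate 1 (0.065) or 12 h replicate 2 (0.081).

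Klf4, Klf5 and Zfp42 did not pass the test at 12 h. Klf4 was at 134 and 90.4 CPM at 0 h and 98.8 and 143 CPM at 12 h, so its groups overlap (0.08 ± 0.28, adjusted p = 0.90). Klf5 was at 70.2 and 79.0 CPM and 70.5 and 66.3 CPM (adjusted p = 0.81), and Zfp42, or Rex1, at 165 and 139 CPM and 197 and 164 CPM (adjusted p = 0.47). The 3 genes were low at 24 h, with means of 14.1 CPM for Klf4, 20.3 CPM for Klf5 and 30.3 CPM for Zfp42. Nr0b1, or Dax1, rose from 5.69 and 5.68 CPM to 36.7 and 10.2 CPM (adjusted p = 0.0027). Its 12 h libraries lay far apart, and without 12 h replicate 1 the fold change was 0.82 (adjusted p = 0.49).

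Genes shared by naive and formative pluripotency rose more often than they fell. Of 16 tested, 6 rose and 2 fell, with left-out counts of 3, 4, 3 and 6 up and 0, 1, 1 and 0 down. Utf1, a chromatin protein of the epiblast, rose from 85.7 and 93.2 CPM to 207 and 192 CPM (1.16 ± 0.20, adjusted p = 8.8e-05). Lin28a, which blocks let-7 maturation, rose from 96.6 and 129 CPM to 226 and 249 CPM (1.08 ± 0.19, adjusted p = 0.00020). L1td1, an RNA-binding protein derived from a LINE element, rose from 866 and 890 CPM to 1702 and 1965 CPM (1.06 ± 0.22, adjusted p = 0.00099). All 3 kept their calls with each library left out. Pou5f1, which encodes OCT4, was at 80.8 and 90.4 CPM at 0 h and 141 and 122 CPM at 12 h and did not pass the test (0.63 ± 0.34, adjusted p = 0.26). Sox2 was at 936 and 905 CPM at 0 h and 630 and 626 CPM at 12 h (-0.55 ± 0.18, adjusted p = 0.045), and its call was lost with any 1 library left out (adjusted p = 0.14 to 0.20).

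Formative genes were the list with the most rising members by share among the plotted lists of 10 or more genes. Of 17 tested 11 rose, 1 fell and 5 did not pass the test, with a median of 1.05 and left-out counts of 8, 9, 8 and 10 up. Pou3f1 (ENSMUSG00000090125, chromosome 4, 124656807 to 124660655), or OCT6, the partner factor of OTX2, was at 4.06 and 9.09 CPM at 0 h and 95.9 and 69.4 CPM at 12 h (3.73 ± 0.29, adjusted p = 2.2e-11, and 4.33 without 0 h replicate 2). Sall2, a zinc finger factor, rose from 5.28 and 3.41 CPM to 28.2 and 37.7 CPM (2.84 ± 0.34). Rbpj, the DNA-binding partner of Notch receptors and a factor of the formative network, rose from 56.4 and 52.3 CPM to 159 and 185 CPM (1.65 ± 0.20). Otx2, which directs enhancers of the postimplantation epiblast, rose from 134 and 122 CPM to 357 and 343 CPM (1.45 ± 0.19, adjusted p = 1e-06). Etv4 and Fgf5, described above, stand in this list too, as do the methyltransferase genes below. Sox3 rose from 2.03 and 4.55 CPM to 17.6 and 19.4 CPM (adjusted p = 0.043, but 0.078 to 0.29 with 1 library left out). Tead2 was the 1 gene that fell (79.8 ± 1.97 to 51.4 ± 16.8 CPM, adjusted p = 0.038, but 0.46 without 12 h replicate 1, 0.18 without 0 h replicate 1 and 0.11 without 0 h replicate 2).

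Of 6 writers of DNA methylation 4 rose and 1 fell, with left-out counts of 2, 2, 2 and 4 up and 1 each down. Dnmt3l, the catalytically inactive cofactor of the de novo enzymes, was at 158 and 164 CPM at 0 h and 886 and 762 CPM at 12 h. Dnmt3a rose from 204 and 190 CPM to 392 and 425 CPM (1.05 ± 0.19, adjusted p = 0.00029). Dnmt3b rose from 314 and 316 CPM to 588 and 480 CPM (0.76 ± 0.20, adjusted p = 0.010) and Uhrf1, which recruits DNMT1 to newly copied DNA, from 126 and 113 CPM to 212 and 194 CPM (0.76 ± 0.21, adjusted p = 0.014). The last 2 lost their calls without 0 h replicate 1 (adjusted p = 0.12 and 0.077), 0 h replicate 2 (0.089 and 0.14) or 12 h replicate 1 (0.16 and 0.12). Uhrf2, the paralog of Uhrf1, fell from 93.4 and 83.5 CPM to 18.3 and 24.5 CPM (-2.07 ± 0.30, adjusted p = 8.3e-06) and held. Dnmt1, the maintenance enzyme, was at 269 ± 7.65 and 375 ± 96.0 CPM (adjusted p = 0.13).

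Some enzymes that act against methylation rose as well. Of 11 tested TET and base repair genes 4 rose and 7 did not pass the test, with left-out counts of 3 each. Tet2, which oxidises methylated cytosine, rose from 13.4 and 18.2 CPM to 65.6 and 68.3 CPM (2.10 ± 0.31, adjusted p = 1.2e-05). Gadd45g rose from 10.2 and 10.8 CPM to 43.7 and 56.1 CPM (2.24 ± 0.31) and Gadd45a from 8.53 and 14.2 CPM to 34.6 and 33.7 CPM (1.62 ± 0.30). The GADD45 proteins are stress-induced and have been linked to DNA demethylation. Tet1 was at 287 and 255 CPM at 0 h and 495 and 504 CPM at 12 h (0.88 ± 0.24, adjusted p = 0.015), but lost its call with any 1 library left out (adjusted p = 0.074 to 0.14).

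Some germline genes that DNA methylation silences in later cells rose. Of 16 tested 5 rose, and the same count was found in each of the 4 fits with a library left out. Tuba3a, a testis tubulin, rose from 11.4 and 5.68 CPM to 61.4 and 51.0 CPM (2.67 ± 0.30, adjusted p = 8.4e-08, and 3.29 without 0 h replicate 1). Dazl, an RNA-binding protein of germ cells, rose from 6.09 and 5.11 CPM to 38.1 and 21.4 CPM (2.41 ± 0.41, adjusted p = 0.00013). Zfp57, which guards imprints, rose from 44.7 and 39.8 CPM to 124 and 115 CPM (1.5 ± 0.29), Tex19.1 from 96.6 and 83.5 CPM to 224 and 244 CPM (1.37 ± 0.23) and Rhox5 from 75.9 and 72.7 CPM to 171 and 186 CPM (1.26 ± 0.22). All 5 hold. Methylation itself was not measured in these cells.

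Some lineage genes that were on at a low level in 2i fell. Nkx1-2, a factor of the caudal epiblast, had 135 and 97 counts at 0 h and 1 and 2 at 12 h. With Wnt3 and T it made up the 3 called genes of 9 tested in the primitive streak list (left-out counts of 3 each). Among early neural genes Sox4 rose from 14.6 and 19.3 CPM to 55.7 and 62.2 CPM (1.81 ± 0.24, adjusted p = 2.2e-06) and Sox11 from 99.1 and 104 CPM to 209 and 205 CPM (1.03 ± 0.17, adjusted p = 8.5e-05). Both are SOX factors that are also expressed outside the neural lineage. Nes, the intermediate filament of neural progenitors, fell from 21.9 and 18.2 CPM to 8.47 and 3.06 CPM (-1.70 ± 0.34, and -2.72 without 12 h replicate 1). These 3 were the called members of 13 tested neural genes.

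Several targets of Notch fell, and its DNA-binding partner Rbpj rose. Notch receptors bind ligands on neighbouring cells and then release a fragment that activates Hes and Hey genes together with RBPJ. Of 17 tested genes 5 fell and 2 rose, with left-out counts of 5, 4, 3 and 4 down and 1, 1, 2 and 1 up. Nrarp, a feedback inhibitor and direct target, had 18 and 12 counts at 0 h and 0 in both 12 h libraries and was at least 5.68-fold lower (adjusted p = 0.00052). Hes1 fell from 32.9 and 25.6 CPM to 8.47 and 4.08 CPM (-2.15 ± 0.44, adjusted p = 0.0010, and -2.85 without 12 h replicate 1). Hey1 had 46 counts at 0 h and 2 at 12 h, a ratio of 13.1 (95% counting interval 3.42 to 111, adjusted p = 0.0053, and 0.088 without 12 h replicate 1). The ligand Jag1, also a known target of beta-catenin, fell from 36.1 and 38.1 CPM to 8.47 and 13.3 CPM (-1.81 ± 0.32, adjusted p = 0.00016). Notch3 fell from 12.3 ± 1.89 to 3.14 ± 1.55 CPM (adjusted p = 0.017, but 0.055 to 0.16 without 0 h replicate 2, 12 h replicate 1 or 12 h replicate 2), and Notch1 was at 25.2 ± 6.78 and 25.8 ± 3.37 CPM (adjusted p = 0.99).

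In the retinoic acid pathway, which drives differentiation through nuclear receptors, the receptor Rarg rose from 75.1 and 85.2 CPM to 232 and 264 CPM (1.63 ± 0.24, adjusted p = 1.2e-05). It kept its call with each library left out. The carriers of retinoic acid Crabp1 (3.69 ± 1.2 to 18.4 ± 7.11 CPM) and Crabp2 (6.94 ± 0.630 to 24.4 ± 1.37 CPM) rose with adjusted p = 0.0050 and 0.018. Crabp1 lost its call without 0 h replicate 1 (0.097) or 12 h replicate 2 (0.090) and Crabp2 with any 1 library left out (0.061 to 0.15). Of 17 Hox, caudal and cofactor genes Meis2 rose from 24.4 and 30.7 CPM to 133 and 128 CPM (2.25 ± 0.24, adjusted p = 1.9e-08) and held.

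Ephrins of the B class went in opposite directions. These membrane ligands of Eph receptors sort cells at boundaries. Efnb2 rose from 6.5 and 6.82 CPM to 76.9 and 58.1 CPM (3.35 ± 0.35, adjusted p = 1.6e-08). Efnb1 fell from 21.9 and 24.4 CPM to 2.12 and 2.04 CPM (-3.43 ± 0.52, adjusted p = 1.9e-05). Both hold, and a further 1 of the 15 tested genes passed, Efna2 (-1.41 ± 0.42, adjusted p = 0.025, or 0.053 to 0.17 with 1 library left out).

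Genes of actin structures and adhesion changed in part. Of 21 genes of the cytoskeleton and of SRF or YAP, 6 rose and 1 fell, with left-out counts of 1, 4, 2 and 3 up. Ahnak, a very large scaffold protein under the plasma membrane, rose from 2.84 and 1.70 CPM to 47.3 and 65.3 CPM (4.52 ± 0.44, adjusted p = 4.3e-09). It was the 1 riser that stayed called with each library left out. Itga3, an integrin chain that binds laminin, rose from 2.03 and 3.98 CPM to 44.5 and 54.1 CPM (4.06 ± 0.44, adjusted p = 4.4e-08) and led the 3 risers among 22 genes of junctions and adhesion, of which 4 fell (left-out counts 1, 3, 2 and 3 up and 1 each down). The 4 were Esrp2, Cldn3, Jup and Cdh1. Cdh1, the E-cadherin of naive and formative cells, was at 701 and 672 CPM at 0 h and 377 and 449 CPM at 12 h (-0.74 ± 0.23, adjusted p = 0.029), and lost its call with any 1 library left out (adjusted p = 0.077 to 0.20). Its level at 24 h, 781 CPM, was again above 0 h.

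Among cell cycle genes the inhibitor Cdkn1a, or p21, fell from 248 and 219 CPM to 55.0 and 34.7 CPM (-2.35 ± 0.22, adjusted p = 2.7e-09). It was the 1 fall among 18 tested p53 targets, of which 1 other, Sesn1, rose (1.42 ± 0.41, adjusted p = 0.020, or 0.060 to 0.15 with 1 library left out). Cyclin D2, from Ccnd2, rose from 47.5 and 57.4 CPM to 104 and 105 CPM (1.00 ± 0.21, adjusted p = 0.00094, and 0.054 without 0 h replicate 1). Of 22 tested genes of mitosis 3 rose. Tpx2, a spindle assembly factor, kept its call with each library left out (149 and 139 CPM to 267 and 261 CPM, 0.87 ± 0.18, adjusted p = 0.0013). Of 24 replication genes 2 rose, Mcm5 and Mcm10, with adjusted p = 0.041 and 0.029, and each lost its call with any 1 library left out (0.080 to 0.23 and 0.064 to 0.23).

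Part of the glycolytic genes fell, and a lactate transporter gene rose. Of 24 tested genes 10 fell, 1 rose and 13 did not pass the test, with a median of -0.58 and left-out counts of 5, 7, 6 and 4 down. Ldha, which makes lactate, fell from 573 and 557 CPM to 285 and 240 CPM (-1.10 ± 0.17, adjusted p = 3.5e-05). Tpi1 fell from 114 and 92.6 CPM to 52.2 and 32.6 CPM (-1.26 ± 0.22) and Bnip3, a hypoxia-induced factor of mitophagy kept in this list as a HIF target, from 62.9 and 55.7 CPM to 24.0 and 11.2 CPM (-1.69 ± 0.32, and -2.42 without 12 h replicate 1). Slc16a3, or MCT4, which exports lactate, rose from 127 and 119 CPM to 395 and 430 CPM (1.74 ± 0.20, adjusted p = 1.3e-07). Each of these 4 stayed called with any library left out. The fall of Slc2a3, a glucose transporter, from 439 and 365 CPM to 237 and 154 CPM (adjusted p = 0.00068) was lost without 12 h replicate 2 (0.057). Slc25a4, which exchanges ATP and ADP across the inner mitochondrial membrane, fell from 640 and 603 CPM to 62.8 and 58.1 CPM (-3.36 ± 0.21, adjusted p = 2.9e-13). Of 31 nuclear genes of the respiratory chain 2 fell, near the share of all genes, though 27 had a negative log2 fold change.

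Many ribosomal protein genes were lower at 12 h. Of 78 tested 25 fell, 2 rose and 51 did not pass the test, and 70 had a negative log2 fold change, with a median of -0.50. The median was -0.43 with 12 h replicate 1 alone and -0.66 with replicate 2 alone, and the left-out counts were 2, 10, 10 and 2 down. Rpl28 was the 1 gene called in all 4 of these fits, at 209 and 176 CPM at 0 h and 56.4 and 53 CPM at 12 h. The list of 22 ribosome biogenesis genes had 1 call. The share of Gm42418 moved with this list, and its part in the result was not tested.

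Of 26 tested polycomb genes 4 rose and 2 fell, with left-out counts of 1, 2, 1 and 3 up and 0, 0, 1 and 1 down. Kdm2b, which brings a variant polycomb complex to CpG islands, rose from 82.4 and 85.2 CPM to 225 and 285 CPM (1.60 ± 0.30, adjusted p = 0.00038) and was the 1 polycomb gene to stay called in each fit with a library left out. Peg10, a retrotransposon-derived gene expressed from the paternal allele, fell from 93.8 and 110 CPM to 33.2 and 25.5 CPM (-1.77 ± 0.28, adjusted p = 2.7e-05). Peg12, also paternally expressed, had 22 and 20 counts at 0 h and 0 at 12 h. Among 23 tested imprinted genes 4 fell and 3 rose, with left-out counts of 2, 4, 3 and 2 down and 0, 1, 1 and 2 up, and Peg10 and Peg12 stayed called in each fit.

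The genes with the smallest p in each direction included several outside all lists. Vax2, a homeobox factor of the eye, had 3 and 2 counts at 0 h and 124 and 132 at 12 h. Basp1, a membrane-bound signalling protein, rose from 49.5 and 72.7 CPM to 575 and 412 CPM (3.03 ± 0.21, adjusted p = 3.3e-12). Zfp423, a zinc finger cofactor of SMAD factors, rose from 1.62 and 3.41 CPM to 58.5 and 42.8 CPM. Cald1, an actin-binding regulator, rose from 71.1 and 67.1 CPM to 242 and 358 CPM (2.11 ± 0.19), and Trim44 from 28 and 26.7 CPM to 145 and 208 CPM (2.67 ± 0.26). Pcyt1b, an enzyme of phosphatidylcholine synthesis, rose from 24.4 and 15.3 CPM to 114 and 134 CPM. The noncoding transcripts Halr1, next to the Hoxa genes, and Eprn rose from 5.69 and 5.68 CPM to 128 and 146 CPM and from 6.09 and 2.27 CPM to 74.8 and 45.9 CPM (4.70 without 0 h replicate 1, against 3.77 ± 0.36 with all libraries). Where a gene overlaps an antisense transcript, reads can be told apart only if strand was used in counting, which is not given in the sources used here.

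The falls with the smallest p after Lefty2 included secreted, cytoskeletal and metabolic genes. Trh, the precursor of thyrotropin-releasing hormone and listed here as a marker of definitive endoderm, fell from 435 and 418 CPM to 31.8 and 31.6 CPM (-3.75 ± 0.25, adjusted p = 8.1e-13). Tfap2c, a factor of trophectoderm and germ cells, fell from 229 and 202 CPM to 7.06 and 5.10 CPM. Msl1, a scaffold of a histone acetyltransferase complex, fell from 155 and 169 CPM to 18.3 and 22.4 CPM (-3.00 ± 0.22). Lgals1, or galectin-1, fell from 236 and 257 CPM to 21.9 and 27.5 CPM (-3.33 ± 0.24), Hspb8, a small heat shock protein, from 147 and 116 CPM to 12.7 and 22.4 CPM (-2.96 ± 0.26), and Ckb, the brain creatine kinase, from 514 and 509 CPM to 123 and 122 CPM (-2.06 ± 0.19). Lima1, an actin-binding protein, fell from 489 and 419 CPM to 94.5 and 102 CPM. Among the genes that hold and have a mean log2 CPM of at least 3, the largest gains in CPM were Eif4a2, a translation initiation helicase, from 687 and 586 CPM to 1938 and 3204 CPM, and G3bp2, a stress granule protein, from 400 and 418 CPM to 1575 and 1187 CPM. All genes of these 2 paragraphs kept their calls with each library left out.

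Markers of other cell types were checked for a change in the makeup of the cultures. Sums of 14 primitive endoderm markers were 402 and 520 CPM at 0 h and 737 and 907 CPM at 12 h. Most of this sum is Sparc, which embryonic stem cells express (320 and 421 CPM to 696 and 855 CPM, 1.07 ± 0.21, and adjusted p = 0.055 without 0 h replicate 1), while Lamb1 fell (-1.37 ± 0.24) and Sox7 and Ttr were at 0 counts in all 4 libraries. Sums of 8 definitive endoderm markers went from 444 and 431 CPM to 36.0 and 41.8 CPM and were mostly Trh, with Foxa1 and Cer1 at 0. Sums of 12 trophectoderm markers went from 262 and 258 CPM to 51.5 and 64.3 CPM and were mostly Tfap2c at 0 h. Of 8 tested members Tfap2c alone fell, and Gata3 rose but does not hold. A positive log2 fold change was found in 5 of the 8, with a median of 0.28. In bulk samples fewer cells of a type and less RNA per cell cannot be told apart.

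The levels at 12 h stand between 0 h and 24 h for only part of the genes. Of the 210 genes that rose and hold, 70 had a mean at 24 h above that at 12 h, 117 lay between 12 h and 0 h, and 23 were back at or below 0 h. Of the 168 that fell and hold, 78 were lower still at 24 h, 88 lay between 12 h and 0 h, and 2 were back at or above 0 h. The genes were chosen by their 12 h levels, so these counts carry no test. Tet2 was at 15.8, 67.0 and 12.9 CPM at 0, 12 and 24 h, Vax2 at 1.18, 111 and 9.76 CPM, Lifr at 49.6, 102 and 28.9 CPM, and Zfp57 at 42.2, 119 and 23.8 CPM. Rbpj (54.4, 172 and 70.8 CPM), Meis2 (27.5, 130 and 45.2 CPM), Ahnak (2.27, 56.3 and 6.68 CPM), Kdm2b (83.8, 255 and 103 CPM) and Eif4a2 (636, 2571 and 737 CPM) likewise had their mean at 12 h above both neighbours. The libraries of 12 h with the high share of Gm42418 carry these values, and the share was 17.1% and 11% at 24 h. Its part in these peaks was not tested.

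Other genes went on in the direction taken by 12 h. Pou3f1 was at 6.58, 82.7 and 407 CPM at 0, 12 and 24 h, Dnmt3b at 315, 534 and 1622 CPM and Otx2 at 128, 350 and 482 CPM. Tfcp2l1 went from 380 to 120 and 12.9 CPM, Nanog from 178 to 57.5 and 6.86 CPM, and Esrrb from 133 to 49.4 and 6.16 CPM. Genes of the streak that were lost by 12 h came back late in the course. T was at 35.8 CPM and Nkx1-2 at 61.9 CPM at 72 h, Cdx2 was at 27.6 CPM at 84 h, and Sp5 was at 11.9 CPM at 72 h. The ligand gene Wnt3 and the Notch genes Hes1 and Jag1 did so too, at 23.8, 63.5 and 55.6 CPM at 72 h. Wnt5b, the other ligand gene that fell, was at 19.7 CPM at 0 h but only 1.58 CPM at 72 h and 4.99 CPM at 84 h.

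**Figure D5:**
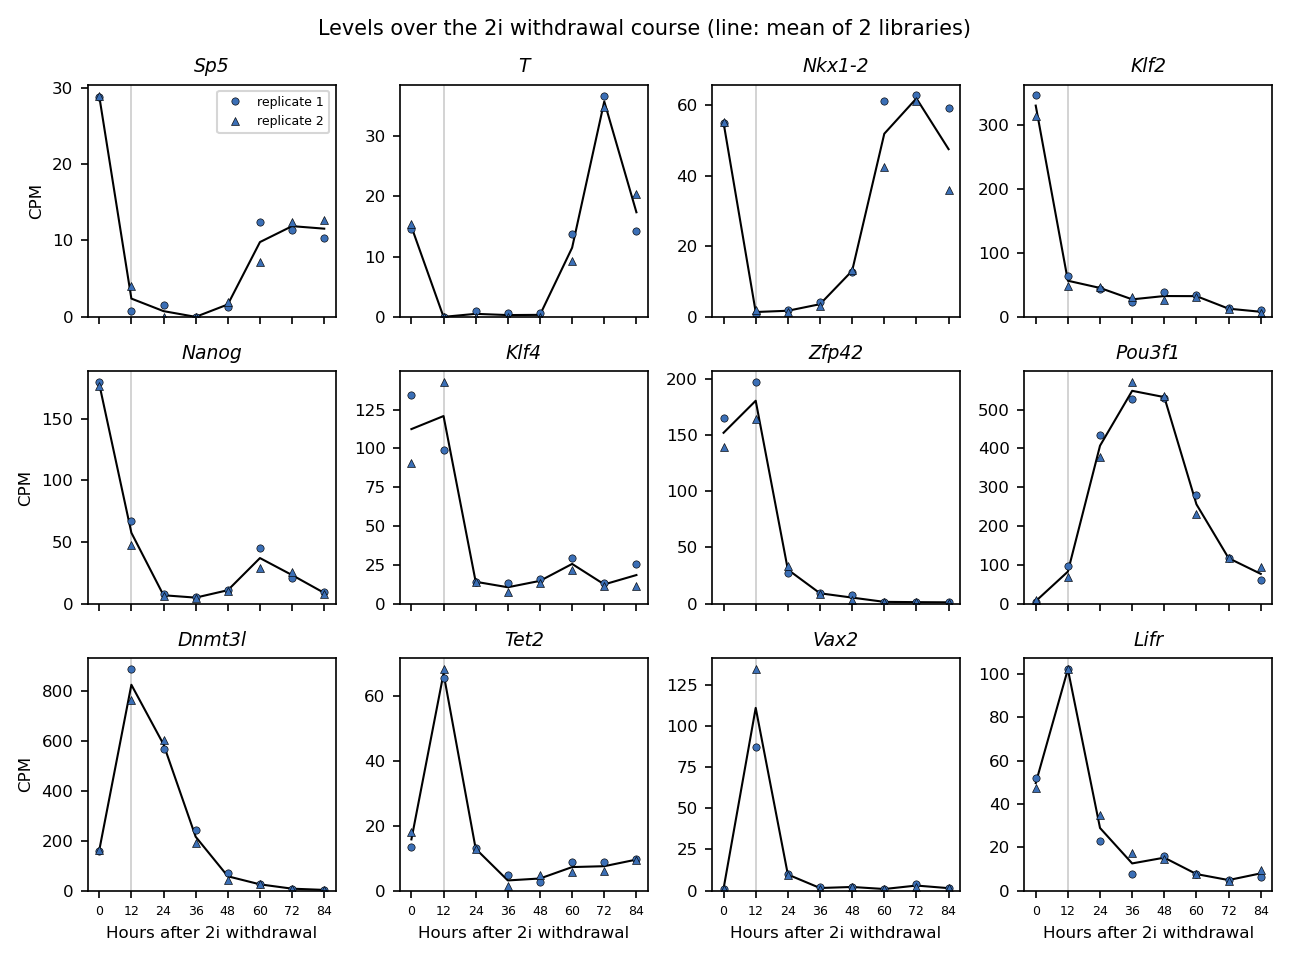
Each panel gives a gene's level in CPM (vertical) at 0 to 84 h after 2i withdrawal (horizontal), with a point per library, a line through the means and a grey line at 12 h. Sp5, T and Nkx1-2 are near 0 at 12 h and rise again from 60 h, Klf4 and Zfp42 fall between 12 and 24 h, and Tet2, Vax2 and Lifr are highest at 12 h.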

How the data were processed

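Messenger RNA was measured by 3′ digital RNA sequencing (NEGEDIA), per the labels' protocols. The authors deposited 1 file of raw counts per library, whole numbers of reads for 31053 Ensembl genes. The tools in the submitters' processing notes are STAR 2.6.0a, HTSeq and bcl2fastq, with build mm10, and the annotation release and strand setting are not given in the sources used here. The authors' deposited CPM table was checked against the counts and not used further. Reads outside genes (29.3% to 46.1% of the reads that HTSeq sorted to a gene or to none, in the 4 libraries) stayed out. Symbols came from GENCODE M21 (31011 IDs named, 42 not).

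Levels are CPM scaled with TMM factors. The test was edgeR 4.0.16 in R 4.3.3: filterByExpr (11761 genes kept), TMM, glmQLFit and glmQLFTest in a single fit of all 32 libraries (16 groups, 16 residual degrees of freedom, common dispersion 0.0215), with Benjamini-Hochberg adjustment over all tested genes. The fit includes 1 shallow library outside this comparison (7298 counts, against 1122648 to 3438514 in the other 31). Standard errors were derived from the F statistics, as the size of a log2 fold change divided by the root of F. On simulated counts for this comparison over 11761 genes, 88 of 100 genes changed 4-fold and 45 of 100 changed 2-fold were recovered. There were 7 false calls among 11561 genes. The changed genes all had a mean log2 CPM of at least 3, so recovery of lower genes was not tested. Counts were drawn with the fitted dispersions and without a shift in composition, so these figures do not cover a departure from that model.

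A gene at 0 counts in a group is set against a floor of 3 counts over the group, and 1 to 3 counts give a ratio with an exact Clopper-Pearson interval (95%). The 4 libraries belong to the comparison by their labels. The comparison and 47 lists (878 genes, 745 tested) were chosen with earlier results of these data known. Genes are named as list members, as the 12 smallest p in each direction among genes that hold with a mean log2 CPM of at least 3, or as the 8 largest CPM changes in each direction among them. Some list members are counted and not reported by name here. Alternatives, whose effect the closing section gives, were DESeq2 1.42.0 (size factors or Wald test), 2 filters, 3 sets of samples, removal of abundant and ribosomal protein genes, a replicate block and leaving out each library. Replicate numbers do not pair libraries by any label.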

Additional observations from a re-analysis of the deposited data

How the results depend on the processing

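The 1346 calls became 571 to 763 when 1 of the 4 libraries was left out (275 to 403 up, 296 to 414 down), 2222 in a fit of the 2i course alone (1211 up and 1011 down) and 493 by DESeq2's Wald test (256 up and 237 down). The 378 genes that hold became 199 without 0 h replicate 1, 257 without 0 h replicate 2, 983 in a fit of the 2i course alone, 1115 in a fit of the 4 libraries alone and 119 by DESeq2. DESeq2 size factors, either filter, removal of the shallow library and removal of abundant and ribosomal protein genes gave 1299 to 1376 calls. A fit without 4 libraries that stand apart, 12 h replicate 2 among them and chosen after the data were seen, gave 1443. Among the genes named here 135 were called, and 36, 27, 36 and 32 of them lost the call without 0 h replicate 1, 0 h replicate 2, 12 h replicate 1 and 12 h replicate 2. DESeq2's Wald test lost 37. Egr1 alone changed direction, with -6.69 to 1.31 over the fits that left out 1 library. The cause of these shifts was not tested.

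With the replicate number as a block the count was 1328 (659 up and 669 down), and Nodal was the 1 named gene that lost its call (adjusted p = 0.051). The deviations of libraries of 0 h and 12 h with the same number correlated at 0.134. Over all 120 pairs of groups the median was 0.003, with a range of -0.421 to 0.459, and 12 pairs lay above 0.1. Whether libraries with the same number share more than the number was not tested.

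Depth limits low genes. With 2.12 and 3.06 CPM as the floor of the 12 h libraries, falls of genes below about 10 CPM at 0 h, Nrarp among them, are bounds or wide intervals, and a further fall could not be seen.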

Other observations

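Many lysosomal genes fell at 12 h. A list of 41 such genes was drawn up after Hexa, Npc2 and Lamp1 had been seen among the falls, so its counts are a description of genes found in these data and carry no test. Of 40 tested, 22 fell and 1 rose, with a median log2 fold change of -0.87, where 5.8% of all tested genes fell. The counts of falling genes were 13, 18, 12 and 14 without 0 h replicate 1, 0 h replicate 2, 12 h replicate 1 and 12 h replicate 2. The median was -1.05 with 12 h replicate 1 alone and -0.93 with replicate 2 alone. Hexa, a subunit of the hexosaminidase that breaks down gangliosides, was at 136 CPM in both 0 h libraries and at 15.5 and 30.6 CPM at 12 h (-2.62 ± 0.24, adjusted p = 1.1e-09). Npc2, which binds cholesterol in the lysosome, went from 861 and 928 CPM to 296 and 444 CPM (-1.28 ± 0.23), and Lamp1, the main protein of the lysosomal membrane, from 694 and 744 CPM to 351 and 384 CPM (-0.97 ± 0.17).

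Genes of the list that had not prompted it included Cd63, a tetraspanin of late endosomes (400 and 385 CPM to 113 and 95.9 CPM, -1.90 ± 0.29), Ctsa, a protease (150 and 168 CPM to 48.0 and 64.3 CPM, -1.52 ± 0.23), and Atp6v0d1, a subunit of the proton pump (48.3 and 54.0 CPM to 16.2 and 22.4 CPM, -1.43 ± 0.25). The protease Ctsl fell from 79.2 and 77.3 CPM to 28.2 and 13.3 CPM (-1.85 ± 0.35, and -2.57 without 12 h replicate 1). Each of these 4 and the 3 genes above kept its call with any library left out. TFE3 and TFEB are related factors that activate lysosomal genes. Tfe3 was at 165 and 168 CPM at 0 h and 250 and 280 CPM at 12 h (0.67 ± 0.19, adjusted p = 0.021), and Tfeb at 25.2 and 25 CPM and 9.88 and 13.3 CPM (-1.14 ± 0.34, adjusted p = 0.024). Both lost their calls with any 1 library left out (adjusted p = 0.060 to 0.16 for Tfe3 and 0.057 to 0.21 for Tfeb). Lamp1 and Cd63 were at 749 and 497 CPM at 72 h, above their level at 0 h, where Hexa was at 105 CPM.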
